A study of Arabidopsis thaliana with 30 samples.

Results

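The genes described here are 4 members of the GH3 family of auxin-conjugating enzymes in the Arabidopsis thaliana root: GH3.1 (AT2G14960), GH3.3 (AT2G23170), GH3.5 (AT4G27260, listed as WES1 in the probe annotation) and GH3.17 (AT1G28130). They were found by symbol or locus among the 13355 genes that the annotation pairs with a probe set of their own, and all 4 passed the filter on low signals, which 9322 genes passed. The study measured Col-0 seedlings 1 week old on 30 single-colour oligonucleotide arrays in 10 groups of 3. Seedlings received 5 µM IAA (indole-3-acetic acid, the main natural auxin) for 2 h, called auxin here, or solvent alone, called mock. Sorted cells came from the stele (line pWOL::GFP), the xylem-pole pericycle (enhancer trap line E3754), the epidermis with the lateral root cap (line pWER::GFP) and the columella (enhancer trap line PET111), each after 1 h of wall digestion, and intact roots were not digested. The tissues are those in which each line's GFP marked cells, so a group is a GFP-positive fraction and not a pure cell type. The design text gives the digestion as including 5 µM IAA and does not say whether that held for mock-treated roots. Digestion, sorting and the longer exposure all separate sorted cells from intact roots and cannot be told apart.

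GH3 enzymes join amino acids to small plant acids. Members that act on IAA turn the free hormone into amino acid conjugates, which lowers the pool of active auxin and stores it or marks it for breakdown. Several of these genes are themselves switched on by auxin within hours, so the pathway works as a feedback on hormone level, and the transcripts are widely used as early auxin-response markers. GH3.5 also acts on salicylic acid, and GH3.17 forms the glutamate conjugate of IAA in seedlings.

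Values are signals on a linear scale, 1 per probe set and array. The arrays had been scaled to a common trimmed mean, array medians ran from 54.4 to 82.9, and arrays of a group correlated with r from 0.938 to 0.982 across genes, which are not independent replicates. Few tissue markers had a named probe set: 1 of 13 for the stele, 3 of 6 for the pericycle, 2 of 10 for the epidermis and lateral root cap, 2 of 5 for the columella and 3 of 9 for the endodermis and cortex. In mock samples the pericycle marker AT4G30450 read 1109.5 to 1786 in sorted pericycle and at most 163 in the other sorted tissues. The columella marker LZY3 read 34.6 to 118 in the columella and at most 33.1 elsewhere among sorted cells, and the root hair genes EXPA7 and EXPA18 were brightest in sorted epidermis. The reporter genes WOL and WER themselves have no named probe set here. Mock levels of the stele marker, the columella marker ACR4 and the pericycle markers LBD16 and LBD29 are not compared across sorted tissues here. The stele fraction therefore has no marker check. The labels do not say which arrays came from separate cultures, so the p-values describe how much these arrays scatter, a scatter that may be technical in origin.

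GH3.3 rose to one of the brightest signals on the array after auxin in every sample type. Its mock signal was dim in sorted cells and higher, well above the array median, in intact roots. In the stele its mock arrays read 25.2, 48.8 and 50.0, and its auxin arrays read 12556, 10375 and 13014. In the pericycle the mock arrays read 31.8, 58.0 and 26.5, and the auxin arrays 10347, 8149.6 and 10980.3. Both inner tissues thus moved from near the array median or below it to above the 99th percentile, with no overlap between treatments.

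In the epidermis GH3.3 read 83.6, 46.6 and 78.5 in mock samples and 6059, 6476 and 7149 after auxin. In the columella it read 61.3, 76.0 and 92.6 in mock samples and 6413, 8257 and 7882 after auxin. In intact roots the mock arrays read 297, 480.1 and 281, and the auxin arrays 10401, 11159 and 10766. Every mock array of intact roots lay above every mock array of the sorted tissues, whereas the auxin arrays of intact roots lay within the range of the sorted ones.

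The auxin response, the auxin mean minus the mock mean of log2(signal + 16), was tested in limma over all 9322 genes with Benjamini-Hochberg adjustment. For GH3.3 it was 7.74 ± 0.23 in the stele (SE, n = 3 per treatment, adjusted p = 5.05e-25), 7.52 ± 0.23 in the pericycle (adjusted p = 1.35e-24), 6.29 ± 0.23 in the epidermis (adjusted p = 3.27e-22) and 6.35 ± 0.23 in the columella (adjusted p = 4.68e-22). In each of the 4 sorted tissues this was the rank 1 rise of the 9322 genes. In intact roots the response was 4.91 ± 0.23 (adjusted p = 9.72e-19), rank 5. These correspond to 213-fold, 184-fold, 78.3-fold, 81.7-fold and 30.1-fold changes on that scale, and the added 16 makes them lower than the ratios of mean signals, which were 290.1 in the stele and 253.5 in the pericycle. With a pseudocount of 1 the folds in the sorted tissues, in the same order, were 295, 259, 95.7 and 97.6, and with 64 they were 115, 96.3, 49.9 and 53.8. With quantile normalization the intact response was 52.4-fold.

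**Figure D1:**
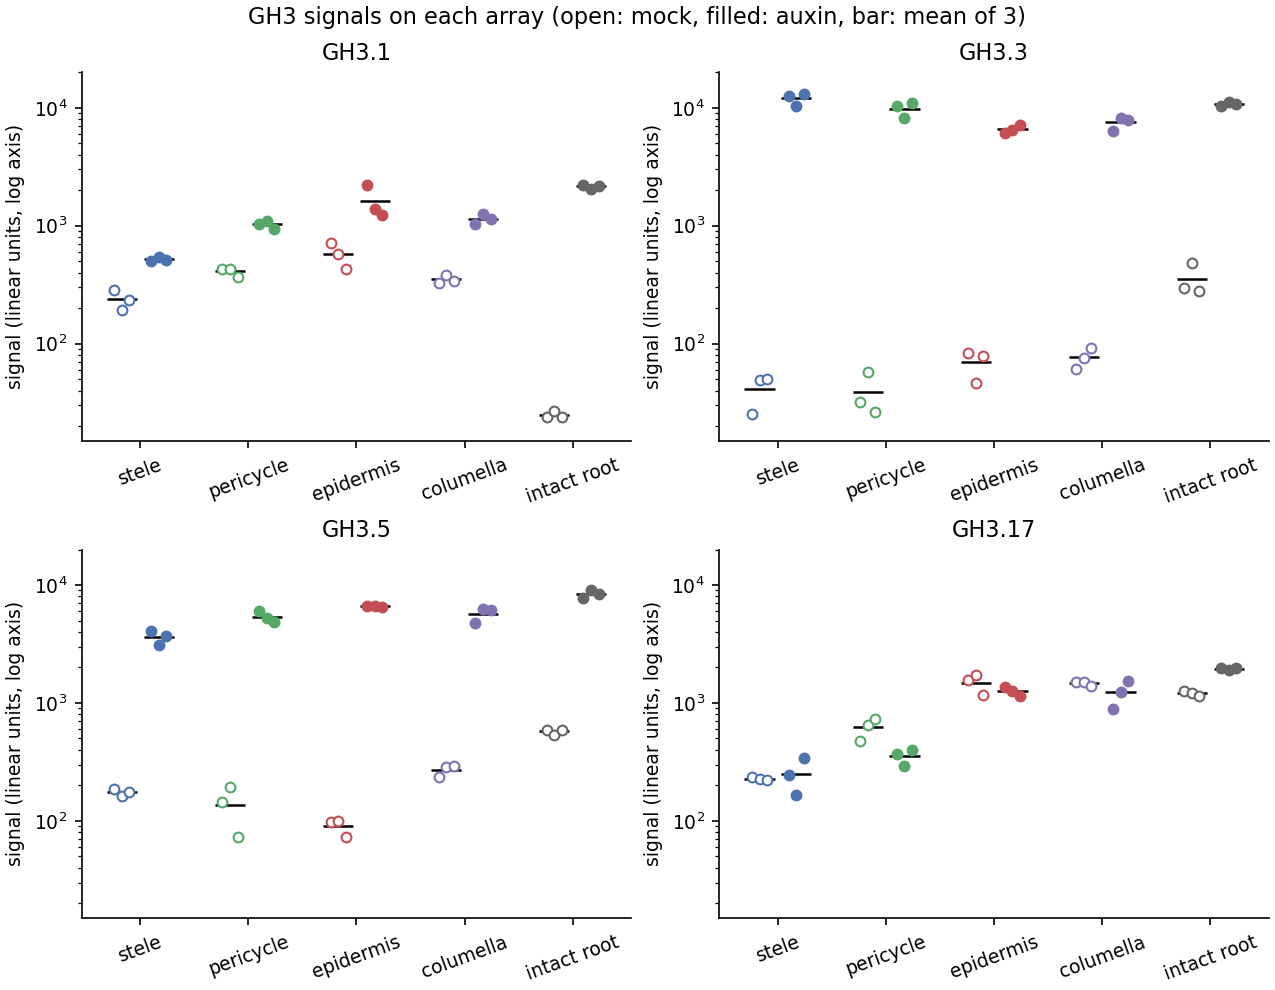
Signal of each GH3 gene on every array, on a logarithmic axis, by sample type, with open points for mock, filled points for auxin and a bar at the mean of 3 arrays. Auxin arrays lie above mock arrays in all 5 sample types for GH3.1, GH3.3 and GH3.5, while GH3.17 follows the tissue more than the treatment; the levels of different genes are not comparable because each has its own probe set.

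GH3.5 rose in every sample type too, from a mock level that was itself patterned. Its mock arrays read 187, 164 and 176 in the stele, 144, 192 and 72.4 in the pericycle, and 97.9, 99.8 and 73.2 in the epidermis. They read 235, 285 and 289.8 in the columella and 593, 538 and 589 in intact roots. Columella was thus the highest sorted tissue before auxin and epidermis the lowest, with the 3 pericycle arrays spread across the stele and epidermis values.

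After auxin GH3.5 read 4072, 3125 and 3702 in the stele, 5966, 5263 and 4857 in the pericycle, and 6599.8, 6646 and 6499 in the epidermis. It read 4717, 6274 and 6092 in the columella and 7713, 9127 and 8361 in intact roots. The order had turned: epidermis, lowest in mock cells, was the highest of the sorted tissues, and the stele was lowest, without overlap with its neighbour in the order. The responses were 4.24 ± 0.21 in the stele, 5.23 ± 0.21 in the pericycle, 5.97 ± 0.21 in the epidermis, 4.31 ± 0.21 in the columella and 3.83 ± 0.21 in intact roots (limma, adjusted p = 9.08e-17 in intact roots and smaller in the others; 4.48 in intact roots with quantile normalization). By size these were ranks 3, 3, 3, 5 and 14 among all genes tested.

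GH3.1 rose in all 5 sample types, modestly in sorted cells and steeply in intact roots. Its stele arrays read 287, 194 and 236 in mock and 499.6, 541 and 516 after auxin. Its pericycle arrays read 430.2, 432 and 371 in mock and 1037, 1094 and 944 after auxin. In both, each auxin array exceeded each mock array.

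Epidermis arrays of GH3.1 read 712, 576 and 428 in mock and 2223, 1383 and 1227 after auxin, and columella arrays read 329, 379.7 and 341 in mock and 1038, 1258 and 1135 after auxin. Intact mock roots read 23.7, 27.1 and 23.8, near the 33rd percentile of the array (mean percentile 32.6), and intact auxin roots 2222, 2064 and 2176. The mock signal of every sorted array was thus far above that of every intact array, while after auxin the intact roots were at the top of the range, overlapping only the brightest epidermis array.

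The response of GH3.1 was 1.08 ± 0.20 in the stele (limma adjusted p = 1.39e-04), 1.29 ± 0.20 in the pericycle (adjusted p = 2.42e-05), 1.45 ± 0.20 in the epidermis (adjusted p = 1.30e-06) and 1.66 ± 0.20 in the columella (adjusted p = 1.53e-07). In intact roots it was 5.73 ± 0.20 (adjusted p = 2.22e-22). The intact mock arrays lay below percentile 40 of their array, the level used to filter genes, and no detection calls were used, so the size of this change has no firm base: it was 53.1-fold with the pseudocount of 16, 83.5-fold with 1 and 25.0-fold with 64. Of all genes, 14.2% were called higher in the stele, 6.57% in the pericycle, 5.95% in the epidermis, 3.75% in the columella and 6.61% in intact roots, against 3 of the 4 members in each sorted tissue and 4 of 4 in intact roots.

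GH3.17 behaved differently from the other 3: auxin moved it little, and in opposite directions in sorted pericycle and in intact roots. Stele arrays read 236, 227 and 222 in mock and 243, 165 and 342 after auxin. Pericycle arrays read 479, 652 and 737 in mock and 373, 289.6 and 398 after auxin, so that all auxin arrays lay below all mock arrays. Epidermis arrays read 1555, 1713 and 1177 in mock and 1363, 1267 and 1149 after auxin. The treatments overlapped in the stele and the epidermis.

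Columella arrays of GH3.17 read 1518, 1515 and 1392 in mock and 888, 1247 and 1549 after auxin, again with overlap. Intact roots read 1270.3, 1208 and 1142 in mock and 1993, 1890.5 and 1988 after auxin, with every auxin array above every mock array. GH3.17 fell in the pericycle by 0.78 ± 0.21 on the log2 scale (limma adjusted p = 0.0140; 5.7% of all genes were called lower there) and rose in intact roots by 0.69 ± 0.21 (adjusted p = 0.0272). In the stele, epidermis and columella the differences were 0.07 (95% interval −0.36 to 0.50), −0.22 (−0.65 to 0.22) and −0.30 (−0.73 to 0.14). Neither call was firm: the intact call was lost when any 1 of the 6 intact arrays was left out (adjusted p from 0.0544 to 0.0951). It was kept in a fit of the 6 intact arrays alone (limma adjusted p = 5.11e-04). The pericycle call was lost without mock replicate 3 or auxin replicate 2 of the pericycle (adjusted p = 0.0799 and 0.0752), and in a fit of the 6 pericycle arrays alone (adjusted p = 0.0974).

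Some markers were also called in sorted pericycle, where 5.7% of all genes were called lower and 6.57% higher. There 2 of 2 tested epidermis markers were lower and 2 of 3 pericycle markers higher. None of the stele, columella, and endodermis and cortex markers was called either way. These lists are too short to measure cell makeup. The epidermis markers were the root hair expansins EXPA7 and EXPA18. EXPA7 read 52.4 to 116 in mock pericycle and 9.71 to 39.0 after auxin, and EXPA18 43.1 to 211 and 1.77 to 23.5. They were 2.82-fold and 3.87-fold lower in auxin-treated sorted pericycle on the log2(signal + 16) scale (limma, both called), and also in the other 3 sorted tissues, where the GH3.17 difference was not called. The pericycle markers LBD16 and LBD29, regulators of lateral root initiation that auxin is known to induce, rose in sorted pericycle by 1.58 and 1.84 on the log2 scale. AT4G30450 read 512 to 2079 there after auxin, beyond its mock range at both ends, and its difference of −0.52 was not called.

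In intact roots, where GH3.17 rose, the EXPA7 and EXPA18 differences, 0.26 and −0.09, were not called. LBD16 and LBD29 rose there by 1.69 and 5.60, and AT4G30450 fell by 1.63 on the log2 scale. Both tested endodermis and cortex markers fell too, SGN3 by 1.28 and C1 by 1.49, where 5.34% of all genes were called lower, and the stele and columella markers were not called. The part that cell makeup has in the GH3.17 fall and rise was not tested, and in such bulk samples fewer cells of a type and less RNA per cell cannot be told apart.

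**Figure D2:**
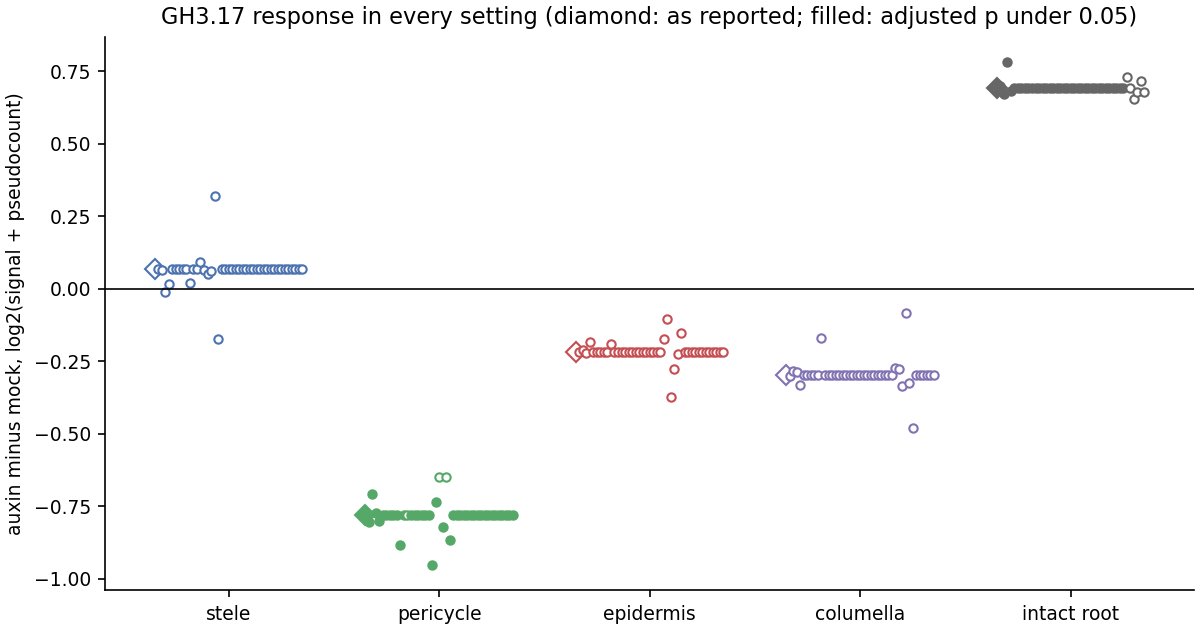
Auxin response of GH3.17 in each sample type under the reported setting (diamond) and 42 alternatives, among them each array left out in turn (circles), filled where the adjusted p is under 0.05. Pericycle values lie between −0.95 and −0.65 and intact values between 0.65 and 0.78, and only in these 2 sample types is any setting called.

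Averaged over the 4 sorted tissues, GH3.3 rose by 6.97 ± 0.11, GH3.5 by 4.94 ± 0.10 and GH3.1 by 1.37 ± 0.10. GH3.17 fell by 0.31 ± 0.11 on the log2 scale (limma adjusted p = 0.0207), a call that was lost without stele auxin replicate 2 or columella auxin replicate 1 (adjusted p = 0.0587 and 0.0534). Of all genes 25% were called higher and 16.2% lower in this average, and the median of all genes was 0.09, so a call as such is common here and the sizes carry the contrast between members.

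**Figure D3:**
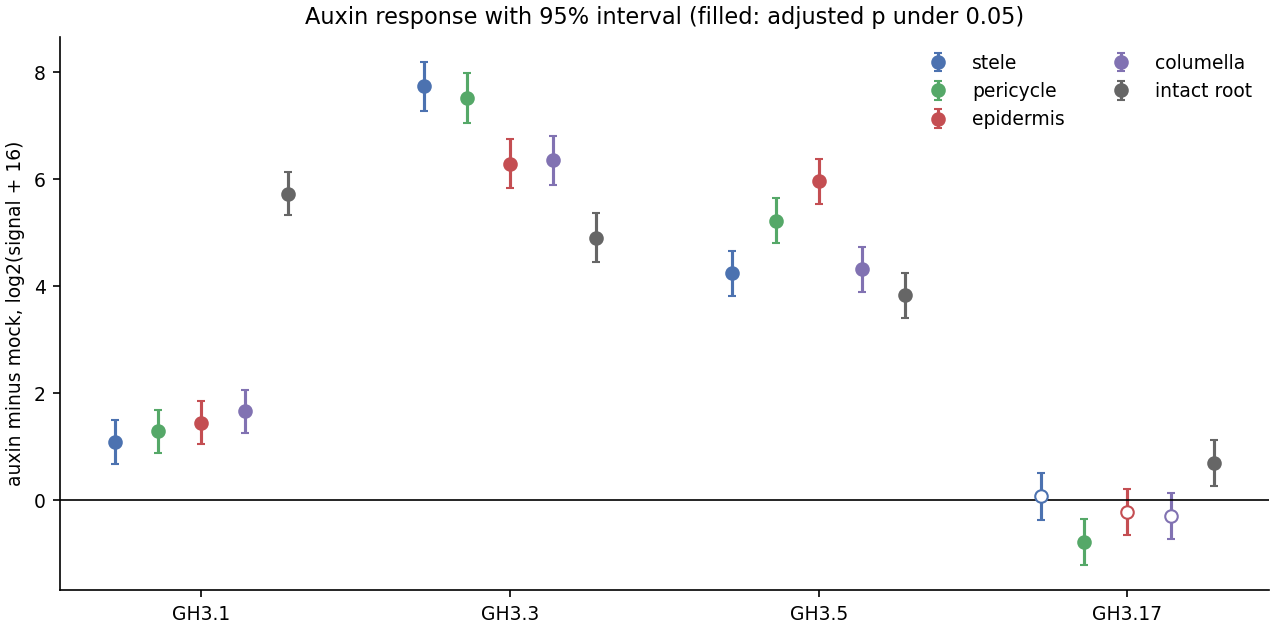
Auxin minus mock of log2(signal + 16) with its 95% interval for the 4 genes in each sample type, filled where the adjusted p is under 0.05. GH3.3 has estimates of 7.74 and 7.52 in stele and pericycle and of 6.29, 6.35 and 4.91 in epidermis, columella and intact roots, GH3.5 reaches 5.97 in the epidermis, and GH3.1 reaches 5.73 in intact roots; which of these differences between sample types were called is given in the text.

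Whether a gene responded to a different extent in different sorted tissues was tested with a moderated F-test on the 4 responses, for which 2.59% of all genes were called. GH3.5 (limma adjusted p = 4.65e-04) and GH3.3 (adjusted p = 0.00436) were called, and GH3.1 (adjusted p = 0.561) and GH3.17 (adjusted p = 0.327) were not. Between stele and epidermis the 2 called genes differed in opposite directions. GH3.3 responded more in the stele than in the epidermis, by 1.45 ± 0.32 (adjusted p = 0.0140; 1.19% of all genes were called in this comparison), and more in the stele than in the columella, by 1.38 ± 0.32 (adjusted p = 0.0194; 1.2% of all genes). The first of these was lost without stele mock replicate 1 (1.22, adjusted p = 0.0557). The second was lost without that array, stele auxin replicate 1, columella mock replicate 3 or columella auxin replicate 1 (1.16 to 1.35, adjusted p from 0.0504 to 0.0740). GH3.5 responded less in the stele than in the epidermis, by −1.72 ± 0.29 (adjusted p = 6.75e-04), and its stele minus columella difference was −0.07 (95% interval −0.66 to 0.52).

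GH3.5 also responded more in the epidermis than in the columella, by 1.65 ± 0.29 (limma adjusted p = 0.0116), in a comparison in which only 4 genes in all, 0.0429%, were called. This call was lost in 5 of 42 alternatives. It was lost with quantile normalization (1.28, adjusted p = 0.116) and in a fit of the sorted arrays alone (adjusted p = 0.0920). The others were those without epidermis mock replicate 3, columella mock replicate 2 or columella mock replicate 3 (1.53 to 1.61, adjusted p from 0.0551 to 0.0585). GH3.3 responded more in the pericycle than in the epidermis by 1.23 ± 0.32 (adjusted p = 0.0464; 1.17% of all genes), a call lost in 27 of 42 alternatives, 20 of them with 1 array left out (adjusted p from 0.0501 to 0.131). No member was called between stele and pericycle, where 1.24% of all genes were, or between pericycle and columella, where 0.161% were. The intervals there were wide: for GH3.3 the pericycle minus columella difference was 1.17 (95% interval 0.52 to 1.82, adjusted p = 0.130) and for GH3.5 the stele minus pericycle difference was −0.98 (−1.58 to −0.39, adjusted p = 0.0869). For GH3.1 the 6 differences ran from −0.58 to −0.16 in the order stele, pericycle, epidermis, columella, and for GH3.17 the stele minus pericycle difference was 0.85 (0.24 to 1.46, adjusted p = 0.166).

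Before auxin, the mock level differed among sorted tissues for all 4 members in the F-test (limma adjusted p = 2.44e-12 for GH3.17, 6.50e-06 for GH3.5, 1.13e-04 for GH3.1 and 0.00753 for GH3.3), as it did for 35% of all genes. The GH3.3 call was lost with a pseudocount of 64 (adjusted p = 0.0903). GH3.17 was higher in the outer and distal tissues: its mock mean was 228 ± 7.15 (SD, n = 3) in the stele, 622 ± 132 in the pericycle, 1475 ± 71.7 in the columella and 1482 ± 276 in the epidermis, with intact roots at 1207 ± 64.1. All pairs of sorted tissues except epidermis and columella differed. The stele was lower than the epidermis by −2.60 ± 0.21 and lower than the columella by −2.61 ± 0.21, and epidermis minus columella was −0.01 (95% interval −0.44 to 0.42).

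GH3.1 was lower in the mock stele than in the pericycle, by −0.76 ± 0.20, and than in the epidermis, by −1.19 ± 0.20 (limma adjusted p = 0.00831 and 1.72e-05); the former was lost without stele mock replicate 2 (−0.62, adjusted p = 0.0690). Its mean rose in the order stele 239, columella 349.9, pericycle 411 and epidermis 572, but arrays of the last 3 overlapped from neighbour to neighbour, and the stele minus columella difference of −0.53 (adjusted p = 0.0483) was lost in 24 of 42 alternatives, 20 of them with 1 array left out (adjusted p from 0.0510 to 0.223). GH3.5 was higher in the mock columella than in the epidermis, by 1.43, and than in the pericycle, by 0.99, and higher in the stele than in the epidermis by 0.86 ± 0.21. Its stele minus columella difference of −0.57 (adjusted p = 0.0403) was lost in 9 of 42 alternatives, among them those without any 1 of the 3 stele mock arrays or without columella mock replicate 2 or 3 (adjusted p from 0.0540 to 0.122). GH3.3 was lower in the pericycle than in the columella by −0.79 ± 0.23, in the stele than in the columella by −0.71 ± 0.23, and in the pericycle than in the epidermis by −0.66 ± 0.23, all at signals under 93. Each of these 3 calls was lost with a pseudocount of 64. The first was lost without pericycle mock replicate 1 or 3 or columella mock replicate 3 (−0.71 to −0.63), the second without stele mock replicate 1 or columella mock replicate 3 (−0.59 to −0.49), and the last without pericycle or epidermis mock replicate 1 or 3 (−0.58 to −0.50), with array weights (−0.52, adjusted p = 0.127) and with no intensity trend (adjusted p = 0.0590). Of all genes, 14.3% were called between stele and pericycle, 25.9% between stele and epidermis, 23.5% between stele and columella, 20.3% between pericycle and epidermis, 11.6% between pericycle and columella and 2.09% between epidermis and columella.

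After auxin all 4 members again differed among sorted tissues in the F-test (limma adjusted p = 5.49e-12 for GH3.17, 6.37e-07 for GH3.1, 0.00449 for GH3.5 and 0.00648 for GH3.3), as did 55.3% of all genes. GH3.3 means ordered as epidermis 6561 ± 550, columella 7517 ± 975, pericycle 9826 ± 1486 and stele 11982 ± 1410.0 (SD, n = 3), each overlapping its neighbour. GH3.5 ran nearly the other way, from stele 3633 ± 477 through pericycle 5362 ± 561 and columella 5694 ± 851 to epidermis 6581 ± 75.1. GH3.1 was lowest in the stele at 519 ± 21.0, and the pericycle, columella and epidermis overlapped at 1025 ± 75.8, 1143 ± 110.2 and 1611 ± 536. GH3.17 remained low in the stele, 249.9 ± 89.1, and pericycle, 353 ± 56.7, which overlapped, and high in the columella, 1228 ± 331, and epidermis, 1259.6 ± 107.

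Sorted cells and intact roots differed for every member, in the mock level and in the response. In mock samples the average sorted level minus the intact level was 3.25 ± 0.16 for GH3.1 (limma adjusted p = 2.23e-19), −2.37 ± 0.18 for GH3.3 (adjusted p = 5.08e-14), −1.80 ± 0.16 for GH3.5 (adjusted p = 7.26e-12) and −0.68 ± 0.17 for GH3.17 (adjusted p = 7.32e-04). This contrast was called for 61% of all genes, so the call itself is the common outcome. The direction set GH3.1, higher in sorted mock cells, apart from the other 3 members, lower in them.

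The response of intact roots minus the average sorted response was 4.36 ± 0.22 for GH3.1 (limma adjusted p = 9.77e-17), −2.06 ± 0.25 for GH3.3 (adjusted p = 2.09e-07), −1.10 ± 0.23 for GH3.5 (adjusted p = 9.82e-04) and 1.00 ± 0.24 for GH3.17 (adjusted p = 0.00400). In this comparison 11.1% of all genes were called. With quantile normalization the GH3.5 value was −0.34 and no longer called (adjusted p = 0.395), and the GH3.3 value was −1.13. With pseudocounts of 1 and 64 the GH3.1 value was 4.98 and 3.37 and the GH3.3 value −2.38 and −1.47, and the mock differences above were 3.85 and 2.30 for GH3.1 and −2.69 and −1.78 for GH3.3. The auxin-treated levels themselves lay closer together than the mock levels for 3 members: intact minus average sorted was 0.31 for GH3.3, 0.69 for GH3.5 and 1.11 for GH3.1 on the log2 scale, and 1.68 for GH3.17, given as a description with no test. In this setting the difference in response of GH3.1, GH3.3 and GH3.5 thus lay mostly in the mock samples. With quantile normalization the mock difference was −2.23 for GH3.3 and −1.68 for GH3.5, beside response differences of −1.13 and −0.34. For these genes the share of the mock samples therefore depends on the scaling. On these arrays the brightest probe set reached 12877 to 39068, and GH3.3 in auxin samples lay between percentiles 99.29 and 99.98 of its array; how far the scale compresses such signals was not tested.

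Marker levels also differed between sorted and intact samples. The endodermis marker SGN3 read 692 to 981 in intact mock roots and at most 228 in any sorted mock sample, and the tested stele, pericycle, epidermis, and endodermis and cortex markers, 8 of 8, were lower in the average of sorted mock samples than in intact ones (limma), as were 30.8% of all genes. The tested columella markers LZY3 and ACR4 were higher, by 0.94 and 0.66. The part of cell makeup in the GH3 differences between sorted and intact samples was not tested.

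**Figure D4:**
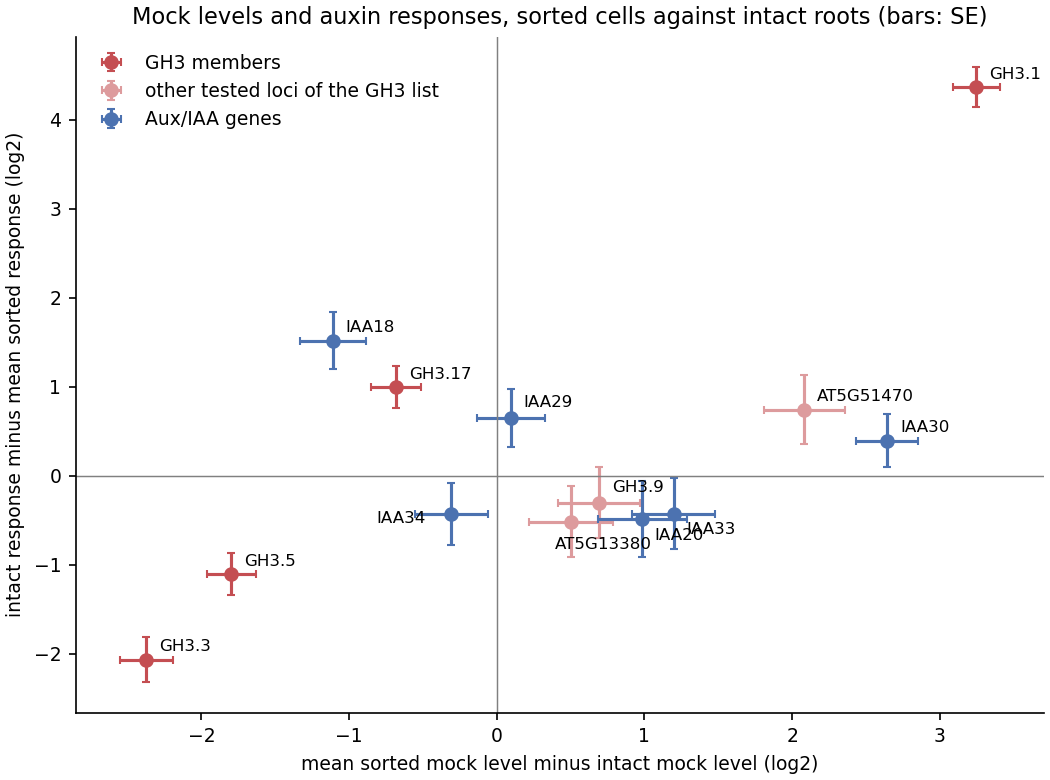
Average sorted mock level minus intact mock level (x axis) against the intact response minus the average sorted response (y axis), both in log2 units with SE bars, for tested GH3 loci and tested Aux/IAA genes. GH3.9 and AT5G13380 passed the filter through auxin arrays only, so their points are not a test of their response. GH3.1 lies at the upper right, at 3.25 and 4.36, and GH3.3 and GH3.5 at the lower left; both axes use the same mock samples, so the slope of the points is in part built in.

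The wider family list held 19 loci, of which 11 had a named probe set and 7 were tested. Beside the 4 members these were GH3.9 (AT2G47750) and 2 loci with no symbol in the files, AT5G51470 and AT5G13380. AT5G51470 was called lower after auxin in the columella and the epidermis. It read 306, 421 and 504 in mock columella and 94.5, 109 and 191 after auxin, and 71.7, 128 and 109.8 in mock epidermis and 21.3, 33.7 and 59.6 after auxin. In the stele and in intact roots no array exceeded 16.5.

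AT5G51470 fell in the columella by 1.56 ± 0.35 (limma adjusted p = 0.00237) and in the epidermis by 1.17 ± 0.35 (adjusted p = 0.0185) on the log2 scale, and its pericycle difference of −0.80 was not called (adjusted p = 0.129). Even so, every pericycle auxin array lay below every pericycle mock array, with means of 24.1 and 60.6, so the fall is not shown to be particular to the outer tissues. GH3.9 and AT5G13380 were dim throughout, at 73.1 or less on every array. Each passed the filter through 4 arrays, all of them auxin arrays, among them 2 epidermis arrays for GH3.9 and 3 for AT5G13380, so no test of their auxin response is given. In the epidermis GH3.9 read 5.41, 7.83 and 15.8 in mock and 26.0, 44.3 and 73.1 after auxin, and AT5G13380 read 11.6, 18.7 and 9.15 in mock and 57.1, 47.3 and 50.9 after auxin. The 4 loci that failed the filter, AT1G23160, AT5G13350, AT1G48670 and AT1G48660, read 47.6 or less on every array.

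**Figure D5:**
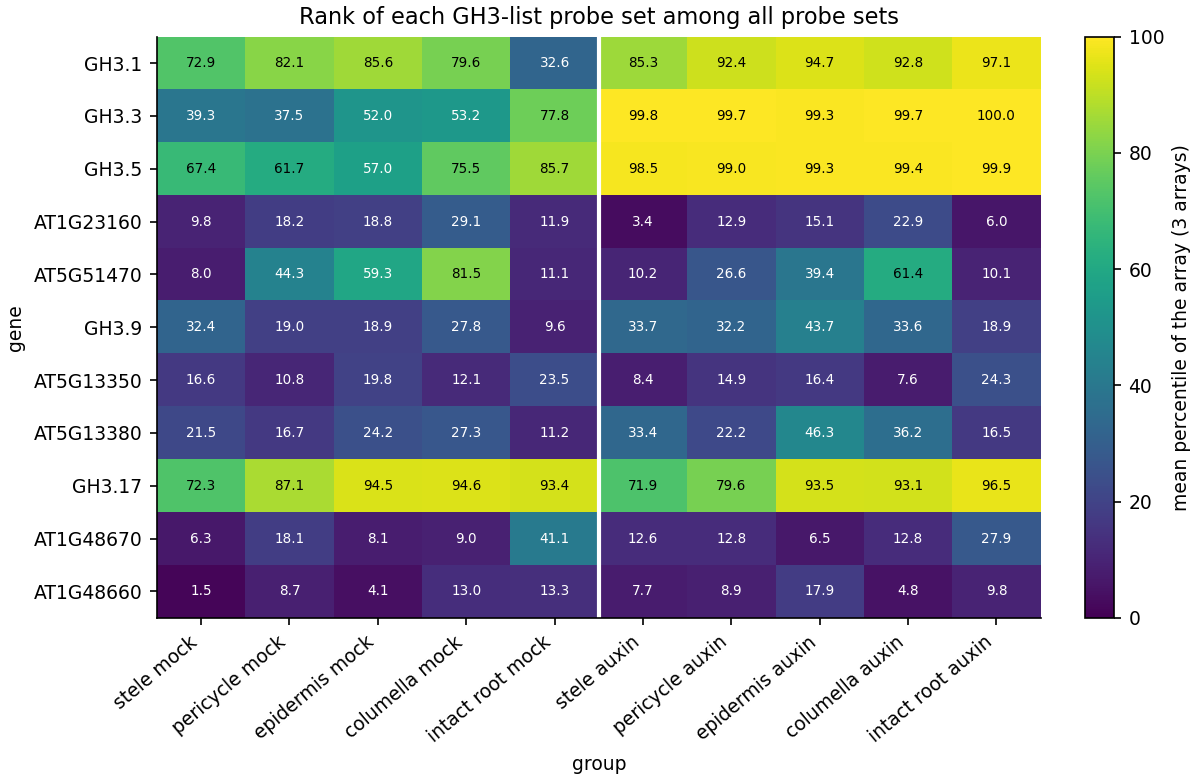
Mean percentile of each GH3-list probe set among all probe sets of its array, for the 5 mock groups at the left and the 5 auxin groups at the right (3 arrays each). GH3.3 and GH3.5 exceed the 98th percentile in all auxin groups, AT5G51470 is brightest in mock columella, and the remaining unnamed loci and GH3.9 stay below the 47th percentile.

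Other steps of auxin control were described with the same fit. Of the Aux/IAA genes, which encode repressors of the auxin response, 6 of 29 were tested, and 5 were higher and none lower in the sorted average, in which 25% of all genes were higher and 16.2% lower. IAA29 rose by 6.06 in sorted cells and 6.71 in intact roots, and IAA30 by 4.34 and 4.74. IAA20 rose by 1.58 in sorted cells, with 1.09 in intact roots not called. IAA18 rose by 0.56 in sorted cells and 2.07 in intact roots, IAA33 by 0.47 in sorted cells, and IAA34, at −0.04, was not called. For IAA29 and IAA30 the intact minus sorted response was 0.65 and 0.39, neither called, while for IAA18 it was 1.52 ± 0.32 (limma adjusted p = 0.00105), so 1 of the 6 was called. In this comparison 11.1% of all genes were called, and 6 genes are too few to set against that share.

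Among genes of auxin oxidation and glucosylation, 3 of 8 were tested. In the sorted average UGT75D1, a glucosyltransferase, rose by 0.68 and DAO1, which oxidises IAA, fell by 0.49, while UGT74D1, a glucosyltransferase that accepts auxin, fell by 1.51 in intact roots (limma). Of the 23 synthesis genes 2 were tested, YUC2 and YUC6, and neither was called in any auxin response. Only 3.75% of all genes in the columella to 14.2% in the stele were called higher, so this is no result about synthesis. No gene of conjugate hydrolysis, and none of the auxin receptors and response factors, had a named probe set.

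Across the 30 arrays GH3.3 and GH3.5 followed each other most closely among the members (Pearson r = 0.975 on log2 signals), within a design in which the treatment itself sets much of any such value. Within the 15 mock arrays r was 0.786, and within the 15 auxin arrays it was −0.24. GH3.1 had r = 0.578 with GH3.3 and 0.590 with GH3.5 over all arrays, −0.83 and −0.84 within mock arrays, and −0.39 and 0.928 within auxin arrays. The mock values include the offset of intact roots, which were the lowest sample type for GH3.1 and the highest for GH3.3 and GH3.5. For deviations from group means r was −0.12 for GH3.1 with GH3.3 and 0.36 for GH3.1 with GH3.5. It was 0.35 for GH3.3 with GH3.5. These are descriptions over arrays that share groups and scaling.

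By the same measure the tested genes most like GH3.3, after GH3.5, were IAA29 at r = 0.953, ATG8G at 0.921, AT1G60010 at 0.920 and AT5G51670 at 0.895. Those most like GH3.5, after GH3.3, were ATG8G at 0.945, AT1G60010 at 0.932, IAA29 at 0.929 and AT1G60000 at 0.898. For GH3.1 they were AT3G25400 at 0.900, AT2G05920 at 0.830, AT2G32220 at 0.817, bZIP44 at 0.812 and AT3G09280 at 0.809. For GH3.17 they were AT1G01630 at 0.934, AT1G11540 at 0.931, UGT72E2 at 0.914, FLDH at 0.904 and AT5G46230 at 0.903. Of the 5 genes most like GH3.17, UGT72E2 alone was called in the sorted average, falling by 0.33 on the log2 scale (limma adjusted p = 0.00401), and none was called in intact roots. Among all genes, 25% were called higher and 16.2% lower in the sorted average, and 6.61% and 5.34% in intact roots. The 5 genes were picked for likeness to GH3.17, which itself moved little, so their few calls are not a separate result.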

How the data were processed

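For each array the authors deposited a linear intensity for 22810 probe sets; per the submitters' processing notes the tool was MAS5. Neither its version nor the chip definition or build is given in the sources used here. Per the labels, RNA was amplified from small amounts and biotin-labelled. The deposited intensities had a mean of 250 on each array after the outer 2% of probe sets at each end were left out. No detection calls were used. Of the probe sets, 13513 are paired with 1 gene, 503 with several and 8730 are not listed, and 64 are controls. A RefSeq table (TAIR10.1) gave names only. Where a gene had several such probe sets, the brightest on average stood for it, and genes were tested when 3 or more arrays put them over percentile 40.

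All 30 arrays were fitted as log2(signal + 16) in limma 3.58.1 (R 4.3.3), with 10 group means, contrasts, eBayes with trend and 20 residual degrees of freedom. Folds on this scale understate changes of dim genes. Calls used an adjusted p under 0.05 (Benjamini-Hochberg, 9322 genes, two-sided). The scripts were tested on simulated data. Figures used matplotlib 3.10.9 in Python 3.11.15. Alternatives covered pseudocounts of 1 and 64, quantile normalization, 75th percentile centring, no filter or the 60th percentile, the mean of a gene's probe sets, variance models, array weights, a replicate block, only the arrays compared, and each array left out. Replicate numbers were not used to pair mock with auxin arrays. The deviations of 6 of 15 same-numbered pairs had r over 0.1, the highest 0.38. Whether such arrays were processed together was not tested. The members and gene lists were chosen with earlier results of these data known. Besides the members, named genes were all GH3-list loci with a named probe set, up to 4 called and 2 other genes of each pathway list, the 5 genes most correlated with each member, and markers.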

Additional observations from a re-analysis of the deposited data

Results flagged for a closer look

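These results were singled out because an effect of auxin differed between sample types in a test of the difference itself. Between intact roots and the sorted average (limma, log2 scale) the response differed by 4.36 for GH3.1, −2.06 for GH3.3, −1.10 for GH3.5 and 1.00 for GH3.17. Among the 4 sorted tissues the F-test gave an adjusted p of 0.00436 for GH3.3 and 4.65e-04 for GH3.5. For GH3.3 the response was larger in the stele than in the epidermis by 1.45 and than in the columella by 1.38, and larger in the pericycle than in the epidermis by 1.23. For GH3.5 the stele minus epidermis difference was −1.72 and the epidermis minus columella difference 1.65. No range test for a single outlying array was run in groups of 3; results without each array are given with the processing.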

How the results depend on the processing

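Precision is limited by 3 arrays per group, and dim mock signals (GH3.3 in sorted cells, GH3.1 in intact roots) make folds depend on the pseudocount. Probe sequences were not used here, so sharing of signal between close relatives was not tested. Centring on the 75th percentile moved the median of all genes in the sorted minus intact mock contrast from 0.01 to 0.15, and all 4 members kept their direction there. Of 1840 repeats of the 44 member comparisons under 42 alternatives, 1825 kept direction and call, 13 lost the call and 2 reversed. Of 2016 repeats of the 48 pairwise comparisons, 1888 kept both, 85 lost the call, 20 gained one and 23 reversed, all 23 in differences that were not called. With quantile normalization the GH3.5 intact minus sorted response was −0.34, no longer called, and the GH3.17 stele difference −0.010. With a pseudocount of 64 the GH3.3 mock F-test gave 0.0903, and with only the pericycle arrays the GH3.17 pericycle response was −0.78, no longer called. Centring made the GH3.3 epidermis minus columella response 0.011, and array weights made that of GH3.17 −0.020. The causes were not tested.

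With 1 array left out, GH3.17 ranged from −0.17 to 0.32 in the stele, −0.95 to −0.65 in the pericycle, 0.65 to 0.73 in intact roots and −0.37 to −0.24 on average. Differences that turned sign were the responses of GH3.1 pericycle minus epidermis (−0.33 to 0.093), GH3.3 stele minus pericycle (−0.023 to 0.38) and epidermis minus columella (−0.27 to 0.063), GH3.5 stele minus columella (−0.20 to 0.034) and GH3.17 epidermis minus columella (−0.13 to 0.26). So were the mock levels of GH3.3 stele minus pericycle (−0.086 to 0.31) and epidermis minus columella (−0.25 to 0.081) and GH3.17 epidermis minus columella (−0.12 to 0.15).

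Counts of genes called moved as well. In the pericycle 1143 became 642 with array weights and 387 with only those arrays, in intact roots 1114 became 2040 and 1887, and for intact minus sorted 1033 became 1874 with weights. The F-test on responses called 241 genes, 159 and 427 with pseudocounts of 1 and 64, 437 with weights and 135 with sorted arrays only. With 1 array left out it called 148 (without stele auxin replicate 2) to 330, and the stele response 1453 (without the same array) to 2411, against 2270. A replicate block changed 0 of the 44 member calls and 1 of the 48 pairwise ones, the GH3.3 mock stele minus epidermis difference, which it brought from an adjusted p of 0.0547 to 0.0496. Same-numbered mock and auxin arrays had deviations with r from −0.01 to 0.38. The block gave each replicate number a shift shared by all 10 groups, so a pairing of mock with auxin arrays within a sample type was not tested. By group means the genes most like a member ranked 11 or better, and by Spearman correlation 80 or better.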
